A study of Sus scrofa with 24 samples.

Results

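Liver transcripts of pigs (Sus scrofa) from a line with high residual feed intake (RFI) were compared at a pair of feeding levels. RFI is the feed eaten beyond what growth and maintenance predict, so a high RFI line is the less feed-efficient line. The comparison rested on 16 of the 24 livers measured, 8 from high RFI pigs fed ad libitum and 8 from high RFI pigs given only as much feed as low RFI pigs eat. Both groups carried the same line background, weighed 115 kg and differed, per the labels, in feeding alone. The other 8 livers came from low RFI pigs fed ad libitum at the same weight, and they entered the estimate of the spread and are given as levels beside some results. The labels give the groups, each of 8 separate pigs with 1 array per pig. The amount of feed and the length of the restriction, the age and sex of the pigs and the time since the last meal are not given in the sources used here.

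The liver is the organ that first meets absorbed nutrients, and its transcripts follow feeding. After meals, insulin and the sterol-regulated factor SREBP1 drive genes of fatty acid synthesis and desaturation, and SCAP escorts SREBP to the Golgi, where it is activated. With less feed, glucagon, glucocorticoids and the fatty acid receptor PPARA drive genes of gluconeogenesis, fatty acid oxidation and ketogenesis. The liver also secretes most plasma proteins, and the XBP1 branch of the unfolded protein response sets the folding capacity of its endoplasmic reticulum.

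Levels are log2 signals with the 75th percentile of each array set to 0, and differences are restricted minus ad libitum group means on that log2 scale. Between 65.7% and 72.7% of spots were well above background on the ad libitum arrays (70.2% ± 2.28, SD, n = 8). On the restricted arrays the share was 63.2% to 70.4% (67.4% ± 2.81, SD, n = 8). Correlations between the 16 arrays were 0.973 to 0.991. Each of the 6 slides held 1 or 2 pigs of each group. The first scan day held 4 ad libitum and 5 restricted pigs, and the second held 4 and 3. Of 14 hepatocyte markers 9 were measured, and their mean level was 7.23 to 7.55 in ad libitum and 7.19 to 7.40 in restricted pigs. Albumin (ALB), the main plasma protein of hepatocytes, differed by 0.02 ± 0.06 (SE). Skeletal muscle, adipocyte, T and NK cell and pancreatic acinar markers had mean levels between -2.17 and -0.17 in every high RFI pig. In whole liver, fewer cells of a type and less RNA per cell cannot be told apart.

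No single transcript passed the threshold between the feeding levels. Of 29554 probes tested, 0 had an adjusted p below 0.05 with limma (0% called). The smallest adjusted p was 0.129. At an unadjusted p under 0.05, 752 probes were higher in restricted pigs (2.54% of those tested) and 840 were lower (2.84%), together 1592 where chance gives 1478. The split depended on how arrays were scaled. It was 47.2% higher on the main scale, 64.2% with median centring, 60.1% in the authors' deposited table and 71.5% after normexp background correction. The median difference over all probes was -0.011, and none of these scalings moved it by as much as 0.1.

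The intervals bound the size of change that these 16 pigs allow. The 95% interval of a difference had a median half-width of 0.274 on the log2 scale, with quartiles of 0.209 and 0.385. For 28074 probes the whole interval lay within 2-fold in either direction, and for 23320 (78.9% of those tested) it lay within 1.5-fold. Differences beyond 2-fold were estimated for 82 probes, 46 higher and 36 lower, and 23 and 17 of them had an unadjusted p under 0.05. For 23 of the 82 (11 higher and 12 lower) the dimmer group was well above background on fewer than 6 of its 8 arrays, so these sizes are uncertain. The pigs varied from one to another by a median SD of 0.247 per probe in the ad libitum and 0.266 in the restricted group.

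**Figure D1:**
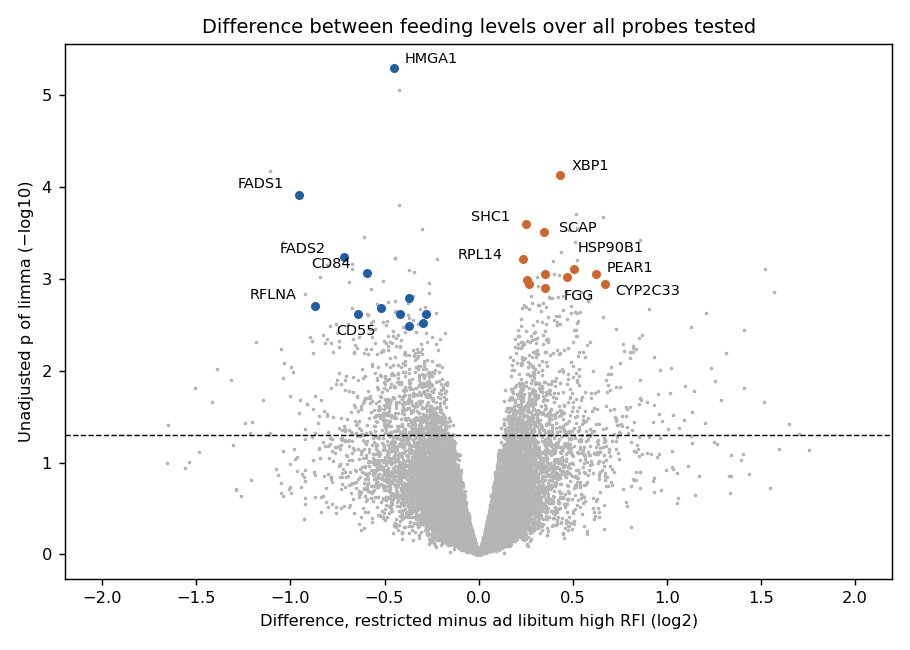
Difference between restricted and ad libitum high RFI pigs (x axis, log2) against the unadjusted p of limma (y axis, −log10) for 29554 probes. Grey points are probes, filled circles are the 12 named genes of smallest p that were lower (blue) or higher (orange), and the dashed line marks an unadjusted p of 0.05. No probe passed after adjustment, and HMGA1 lies highest at an adjusted p of 0.129.

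In 8 probes the restricted and ad libitum pigs did not overlap at all, 5 of them higher in restricted pigs (0.0169% of probes tested) and 3 lower (0.0102%). The higher ones were probes of XBP1, RPL14, PAN2 and SAR1A and an unnamed probe. SAR1A encodes a GTPase that starts the coated vesicles leaving the endoplasmic reticulum, and it was named here after its values were seen. Its level was 2.02 to 2.29 (median 2.11) in restricted and 1.76 to 2.01 (median 1.91) in ad libitum pigs, a difference of 0.23 ± 0.07 (SE, adjusted p = 0.729). The lower ones were HMGA1 and a pair of unnamed probes that share 1 transcript record, A_72_P530944 (-0.42 ± 0.08) and A_72_P368153 (-0.42 ± 0.09, SE). A_72_P530944 was the only other probe at the smallest adjusted p, 0.129. Its level was -0.38 to -0.21 (median -0.30) in restricted and -0.09 to 0.22 (median 0.14) in ad libitum pigs.

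HMGA1 encodes a chromatin protein with AT-hooks that bends AT-rich DNA and is a member of the cell cycle list used here. The probes of HMGA1 that gave the lower values are shown because they read different stretches of the same coding sequence. The start codon is in capitals in the first, and the pair shares no stretch longer than 6 bases, so each is a separate reading of the transcript.
A_72_P443746: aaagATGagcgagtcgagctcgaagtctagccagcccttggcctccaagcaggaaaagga
A_72_P706134: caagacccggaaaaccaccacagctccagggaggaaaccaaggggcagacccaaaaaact

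With A_72_P443746 the level was -3.26 to -2.88 (median -3.07) in restricted pigs and -2.81 to -2.40 (median -2.64) in ad libitum pigs. Every restricted pig lay below every ad libitum pig. The means were -3.07 ± 0.13 and -2.63 ± 0.13 (SD, n = 8), a difference of -0.45 with a 95% interval from -0.61 to -0.29 (adjusted p = 0.129). On the separate scan days the difference was -0.47 and -0.39. A_72_P706134 gave -0.47, and the brightest HMGA1 probe, A_72_P073331, gave -0.19 ± 0.25 (SE), with overlapping groups. The level of A_72_P443746 was between those of the other groups in low RFI pigs, with a median of -2.90. After normexp background correction the difference was -0.26 (adjusted p = 0.994).

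**Figure D2:**
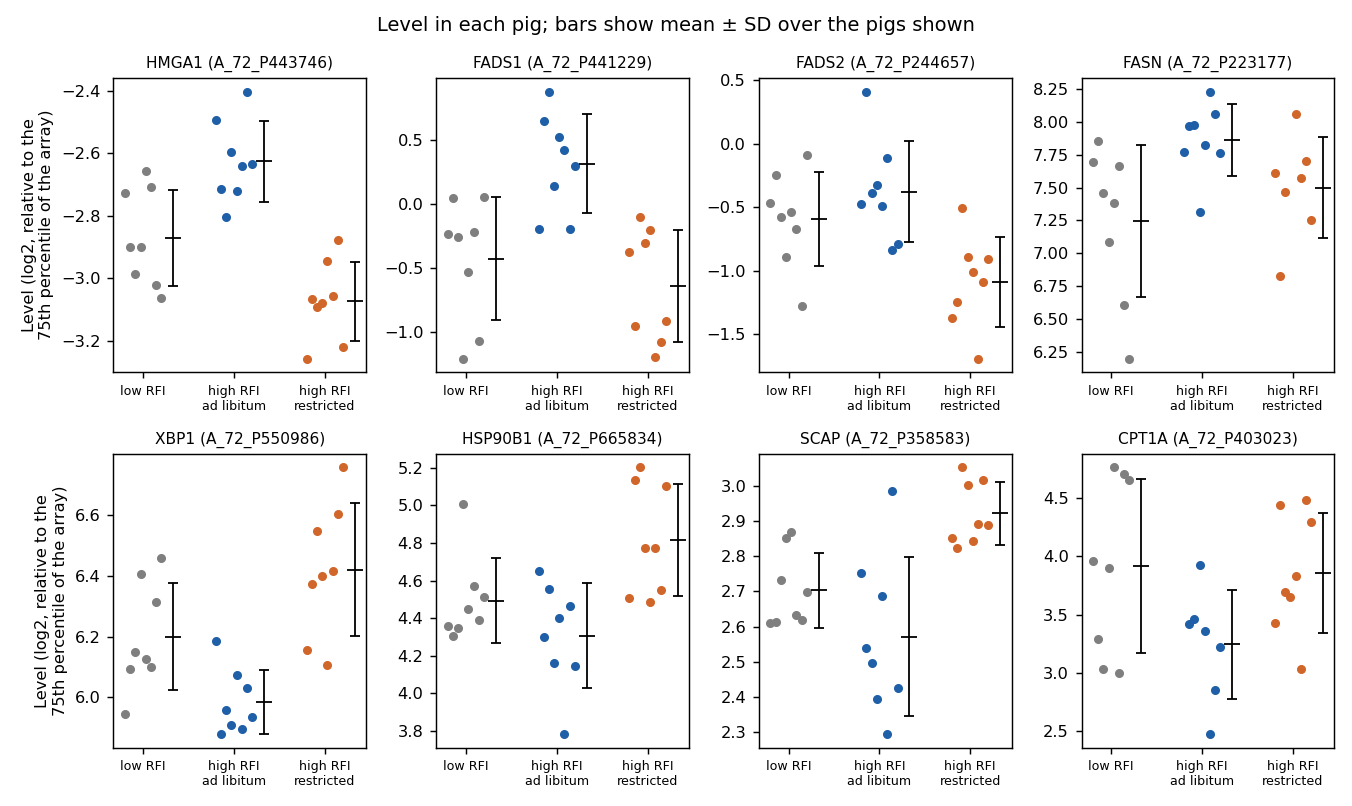
Level of 8 transcripts in each pig (y axis, log2, 75th percentile of each array set to 0) for low RFI, ad libitum high RFI and restricted high RFI pigs, with mean ± SD beside the points (8 pigs a group, but 7 restricted for FASN and 7 ad libitum for CPT1A). Restricted pigs lie below all ad libitum pigs for HMGA1, while the groups overlap in the other 7 panels.

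Among lipid genes the smallest p below 0 belonged to the front-end desaturases. FADS1 and FADS2 encode the delta-5 and delta-6 desaturases, which insert double bonds into polyunsaturated fatty acids. The probes of both genes are shown because they are paralogs and part of the probe sequence is common to both. The capitals mark the 16 bases that the probes share, so signal from one gene on the probe of the other was not tested.
FADS1 A_72_P441229: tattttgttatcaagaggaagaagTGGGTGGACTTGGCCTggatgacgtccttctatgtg
FADS2 A_72_P244657: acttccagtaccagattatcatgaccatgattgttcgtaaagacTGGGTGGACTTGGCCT

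FADS1 with this probe had a level of -1.20 to -0.10 (median -0.64) in restricted and -0.20 to 0.88 (median 0.36) in ad libitum pigs. Of the 8 restricted pigs, 7 lay below every ad libitum pig. The difference was -0.95 ± 0.21 (SE, 95% interval -1.38 to -0.52, adjusted p = 0.687). The brighter FADS1 probe, A_72_P368958, gave -0.34 ± 0.16 (SE). A further probe that carries no gene symbol here but is described on the array as delta-5 desaturase, A_72_P195462, ranged from 1.41 to 3.01 (median 2.48) against 2.75 to 4.01 (median 3.41). Its difference was -1.11 ± 0.23 (SE, adjusted p = 0.548), and 6 of 8 restricted pigs lay below all ad libitum pigs. This probe was picked outside the naming rules.

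FADS2 had a level of -1.69 to -0.51 (median -1.05) in restricted and -0.84 to 0.41 (median -0.43) in ad libitum pigs. As with FADS1, 7 of 8 restricted pigs lay below every ad libitum pig, and restricted pig 3 was the highest of its group for both genes. The difference was -0.71 ± 0.18 (SE, adjusted p = 0.704). It was -1.09 among pigs scanned on the first day and -0.25 among those of the second. FADS1 (A_72_P441229) differed by -1.18 and -0.65 on those days. In low RFI pigs the median level was -0.24 for that FADS1 probe and -0.56 for FADS2.

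Most genes of the fatty acid synthesis list, which also holds FADS1 and FADS2, lay on the same side. Counted by the brightest probe of each gene, 10 of 11 measured members, FADS1 and FADS2 among them, had a difference below 0. The median was -0.34 beside -0.0042 over all 4379 genes. Of the 11, 0 passed the adjusted threshold and 3 were lower at an unadjusted p under 0.05 (FADS2, ACSS2 and FADS1), where 2.31% of all genes were lower and 2.67% higher at that level. ACSS2, which makes acetyl-CoA from acetate, had a level of 3.02 to 5.42 (median 4.15) in restricted and 4.37 to 5.55 (median 4.89) in ad libitum pigs. The groups overlapped, with 4 restricted pigs below all ad libitum pigs, and the difference was -0.82 ± 0.35 (SE, adjusted p = 0.911).

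FASN, the enzyme that assembles palmitate, had a level of 6.83 to 8.06 (median 7.58) against 7.31 to 8.23 (median 7.90). The spot of restricted pig 4 was an outlier on its array and is left out, so 7 restricted pigs gave these values. The groups overlapped and the difference was -0.36 ± 0.21 (SE, adjusted p = 0.939), with its 3 probes between -0.55 and -0.36. ACACA, which makes malonyl-CoA, differed by -0.35 ± 0.23, the NADPH-supplying malic enzyme gene ME1 by -0.34 ± 0.28 and the delta-9 desaturase gene SCD by -0.23 ± 0.33 (all SE). For these 3 genes no restricted pig lay below all ad libitum pigs. ACLY, which supplies cytosolic acetyl-CoA from citrate, differed by -0.09 ± 0.24 (SE). The acyl-CoA synthetase gene ACSL3 was the member above 0, at 0.29.

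The level of the list in a pig is the mean over its members measured in that pig, each taken relative to its own mean over the 16 high RFI pigs. For fatty acid synthesis it was -0.51 to 0.31 (median -0.20) in restricted and -0.18 to 0.57 (median 0.13) in ad libitum pigs. Restricted pigs 2, 6, 7 and 8 lay below all ad libitum pigs, and restricted pigs 1, 3, 4 and 5 lay within their range. Low RFI pigs had a median of -0.27, with low RFI pigs 7 and 8 lowest of all 24 at -0.99 each. The median difference of the list was -0.40 on the first scan day and -0.15 on the second.

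**Figure D3:**
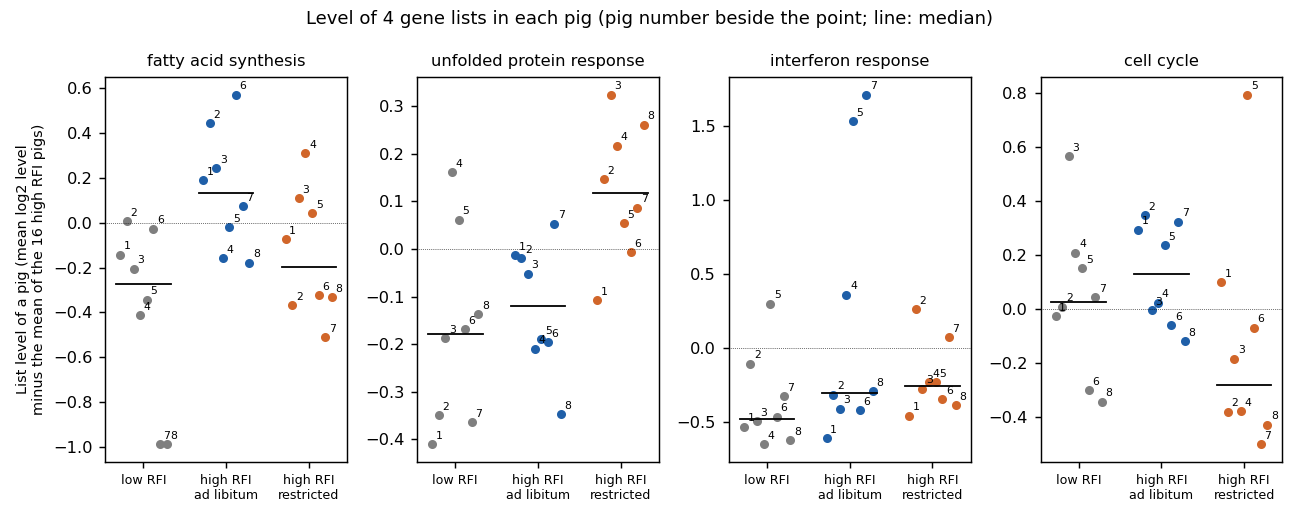
Level of 4 gene lists in each pig (y axis, log2, mean over members of the level minus its mean over the 16 high RFI pigs), with the pig number beside each point and the group median as a line. Ad libitum pigs 5 and 7 stand at 1.53 and 1.71 for interferon response, and restricted pig 5 stands at 0.79 for cell cycle.

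Genes that control sterol and fatty acid synthesis were not uniform. SCAP, the escort of SREBP, was higher in restricted pigs, while 12 of the 15 measured members of the sterol and SREBP list had a difference below 0 (median -0.12). The level of SCAP was 2.82 to 3.05 (median 2.89) in restricted and 2.29 to 2.99 (median 2.52) in ad libitum pigs. The groups overlapped through ad libitum pig 7, the highest of its group, and 3 restricted pigs lay above it. The difference was 0.35 ± 0.08 (SE, adjusted p = 0.687). In the list 0 genes passed the adjusted threshold, and SCAP was the 1 member at an unadjusted p under 0.05. SREBF1, which encodes SREBP1, differed by -0.14 ± 0.14 (SE), by 0.09 on the first scan day and by -0.49 on the second. Without restricted pigs 7 and 8 the median difference of the list was -0.0037, with 6 of 15 above 0.

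Genes of triglyceride assembly and lipid droplets showed no common side. Of 20 measured members 14 lay above 0 (median 0.04), and 0 had an unadjusted p under 0.05 or passed after adjustment with limma. On the second scan day 5 of 20 lay above 0 (median -0.12). DGAT2, which adds the last acyl chain of triglyceride, differed by -0.32 ± 0.18, and LPIN1, a phosphatidate phosphatase, by 0.59 ± 0.36 (SE). LPIN1 reached a level of 3.79 in restricted pig 8, against a group median of 0.97. PNPLA3, a lipase and acyltransferase of lipid droplets, differed by -0.95 ± 0.69, and the droplet coat gene PLIN2 by 0.09 ± 0.12 (SE).

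The list of gluconeogenesis and glycogen genes had differences above 0 in 10 of 13 measured members, with a median of 0.12. Without restricted pigs 7 and 8 the median was 0.01 with 8 above 0, and on the second scan day it was 0.03. Restricted pigs 7 and 8 had the highest list levels of their group, 0.35 and 0.60. Ad libitum pigs 7 and 8, the highest of theirs at 0.13 and -0.01, were kept when those were left out. Of the 13, 0 passed the adjusted threshold and 2 were higher at an unadjusted p under 0.05. PC, pyruvate carboxylase, opens gluconeogenesis from pyruvate. Its level was 3.26 to 4.23 (median 3.64) in restricted and 2.84 to 3.42 (median 3.16) in ad libitum pigs. In 6 of 8 restricted pigs it lay above every ad libitum pig, and the difference was 0.49 ± 0.17 (SE, adjusted p = 0.796). UGP2, which makes UDP-glucose for glycogen, differed by 0.26 ± 0.11 (SE, adjusted p = 0.908).

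The terminal and the rate-setting enzyme of gluconeogenesis varied widely between pigs. G6PC, glucose-6-phosphatase, had a level of 1.77 to 6.50 (median 3.90) in restricted and 2.60 to 4.79 (median 2.99) in ad libitum pigs. The restricted pigs thus spanned the whole ad libitum range on both sides, and the difference was 0.96 ± 0.53 (SE, 95% interval -0.13 to 2.04). PCK1, phosphoenolpyruvate carboxykinase, ranged from 4.82 to 8.31 (median 5.96) against 5.04 to 7.71 (median 5.63), with the outlier spot of restricted pig 4 left out. The groups overlapped, with a difference of 0.47 ± 0.57 (SE). PPP1R3C, which targets a phosphatase to glycogen, differed by -0.74 ± 0.45 (SE) and was lowest in restricted pig 8, where G6PC was highest. In glycolysis 6 of 10 members lay above 0 (median 0.08) with 0 at an unadjusted p under 0.05, and the carbohydrate-sensing factor MLXIPL differed by -0.22 ± 0.14 (SE).

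Fatty acid oxidation and ketogenesis showed no shift as a list, with 13 of 24 measured members above 0 and a median of 0.03. At an unadjusted p under 0.05, 1 member was higher and 1 lower, and 0 passed after adjustment. CPT1A, which admits long-chain fatty acids to mitochondria, had a level of 3.03 to 4.49 (median 3.76) in restricted and 2.47 to 3.93 (median 3.36) in ad libitum pigs. The ad libitum values came from 7 pigs, since the spot of pig 1 was an outlier on its array. The groups overlapped, 3 restricted pigs lying above all ad libitum pigs, and the difference was 0.61 ± 0.29 (SE, adjusted p = 0.924). All 5 CPT1A probes gave differences above 0, from 0.40 to 0.73. UCP2, a mitochondrial carrier, differed by -0.24 ± 0.10 (SE).

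Of the fasting-linked genes, PPARA differed by -0.38 ± 0.29 (SE). The pyruvate dehydrogenase kinase gene PDK4 differed by -0.16 ± 0.24, the lipase inhibitor gene ANGPTL4 by 0.09 ± 0.27 and the hormone gene FGF21 by -0.03 ± 0.21 (all SE). For each of these 4 genes the 95% interval spans 0. For FGF21 it ran from -0.46 to 0.40 with a dim probe (mean level -3.92), so for that probe a change as large as 2-fold lies outside it. The other FGF21 probe, dimmer still, gave 0.23 ± 0.35 (SE). It was well above background in 5 of 8 ad libitum and 6 of 8 restricted pigs.

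**Figure D4:**
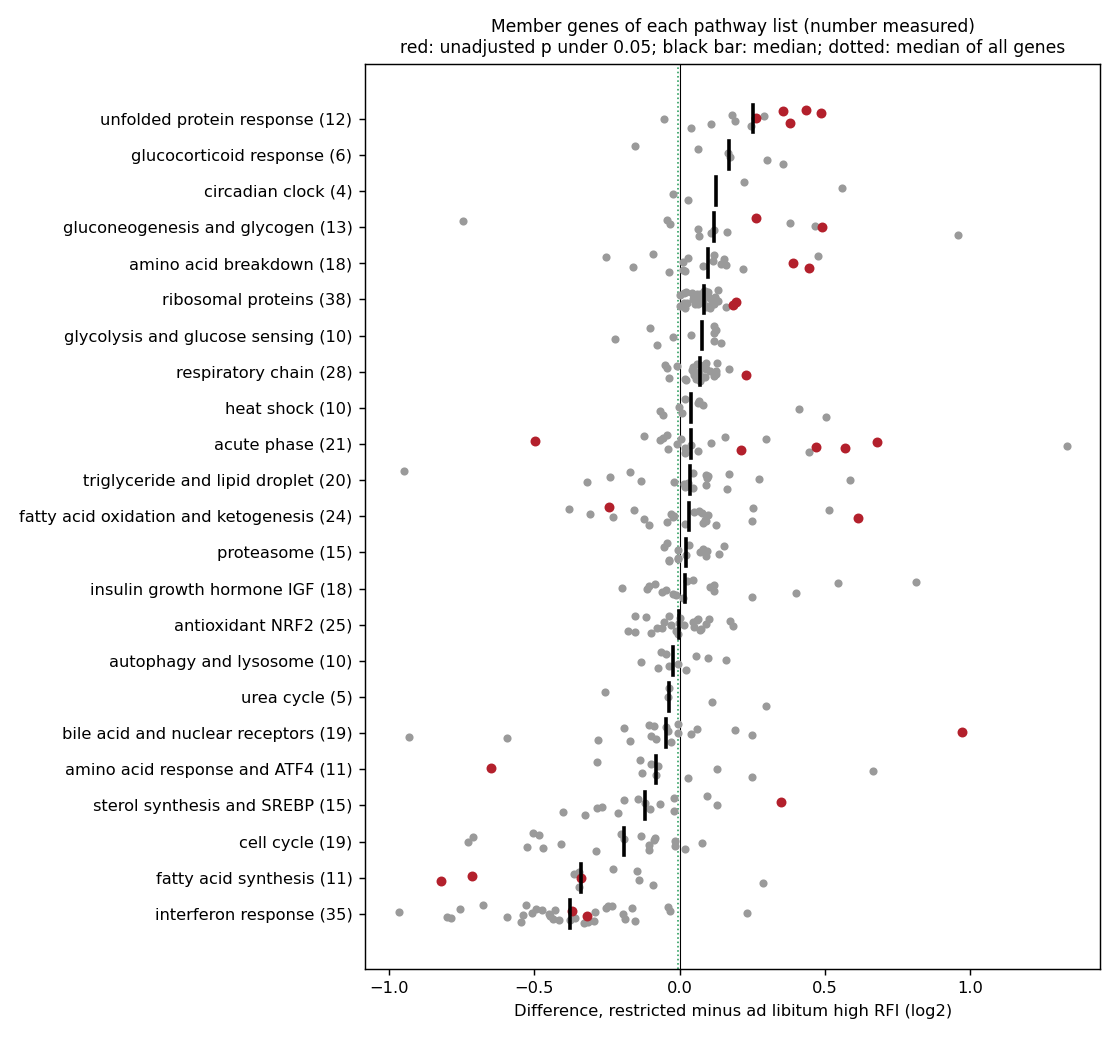
Difference of each measured member of 23 pathway lists (x axis, log2, restricted minus ad libitum high RFI), with the number measured beside the list name. Red points have an unadjusted p under 0.05, black bars are list medians and the dotted line is the median of all genes at -0.0042. The medians run from -0.38 for interferon response to 0.25 for the unfolded protein response.

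Genes of the unfolded protein response lay higher in restricted pigs. Of 12 measured members 11 had a difference above 0, with a median of 0.25 beside -0.0042 over all genes. Of the 12, 0 passed the adjusted threshold and 5 were higher at an unadjusted p under 0.05, where 2.67% of all genes were. XBP1, the transcription factor of the pathway, had a level of 6.11 to 6.76 (median 6.41) in restricted and 5.88 to 6.19 (median 5.95) in ad libitum pigs with probe A_72_P550986. In 6 of 8 restricted pigs it lay above every ad libitum pig. The difference was 0.44 ± 0.09 (SE, 95% interval 0.25 to 0.62, adjusted p = 0.548), and 0.48 and 0.39 on the separate scan days. The 6 XBP1 probes gave 0.44 to 0.52. The array describes their record as an XBP1 pseudogene while RefSeq names it XBP1, so the probes may read either.

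HSP90B1 encodes GRP94, a chaperone of the endoplasmic reticulum. Its level with A_72_P665834 was 4.48 to 5.20 (median 4.78) in restricted and 3.78 to 4.65 (median 4.35) in ad libitum pigs. The groups overlapped, 5 restricted pigs lying above all ad libitum pigs, and the difference was 0.51 ± 0.13 (SE, adjusted p = 0.704). All 8 HSP90B1 probes gave differences above 0, from 0.26 to 0.51, the lowest being the brightest probe.

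DNAJB11, a co-chaperone, had a level of 2.37 to 3.41 (median 2.74) in restricted and 1.89 to 2.57 (median 2.39) in ad libitum pigs, a difference of 0.38 ± 0.13 (SE, adjusted p = 0.736). In 6 restricted pigs it lay above all ad libitum pigs. SDF2L1, part of the same chaperone complex, differed by 0.49 ± 0.19 and SEC61A1, the channel for protein entry, by 0.36 ± 0.13 (SE). For SEC61A1 the highest pig of all 16 was ad libitum pig 7. The chaperone genes HSPA5 (BiP) and CALR differed by 0.29 ± 0.15 and 0.25 ± 0.12 (SE).

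By pig, the level of the list was -0.11 to 0.32 (median 0.12) in restricted and -0.35 to 0.05 (median -0.12) in ad libitum pigs. Restricted pigs 2, 3, 4, 7 and 8 lay above all ad libitum pigs, restricted pig 5 was level with the highest ad libitum pig at 0.05, and restricted pigs 1 and 6 lay within the ad libitum range. Low RFI pigs had a median of -0.18. The median difference was 0.26 on the first scan day and 0.28 on the second. Genes of the neighbouring ATF4 response did not share the direction, with 4 of 11 members above 0 (median -0.08). ATF4 itself differed by 0.03 ± 0.09 (SE), with a 95% interval from -0.17 to 0.22. PHGDH, the first enzyme of serine synthesis, was the 1 member of that list at an unadjusted p under 0.05. It had a level of 0.11 to 2.69 (median 1.56) in restricted and 1.83 to 2.59 (median 2.36) in ad libitum pigs, overlapping, with a difference of -0.65 ± 0.26 (SE, adjusted p = 0.881). Cytosolic heat shock genes had a median difference of 0.04 with 0 of 10 at an unadjusted p under 0.05.

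Several transcripts were read by many probes, which gives a check within the array. The 6 probes of RPL14, a protein of the large ribosomal subunit, gave 0.18 to 0.24, and the 6 of CYP2C33, a drug-metabolising cytochrome P450, gave 0.37 to 0.67. For WBP11, a splicing factor, the probe of smallest p gave -0.28 while the other 7 lay above 0. For PAN2, a deadenylase subunit, 4 of 6 probes lay above 0. Probes of 1 gene share the same 16 RNA samples, so they are not replicates of the condition.

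**Figure D5:**
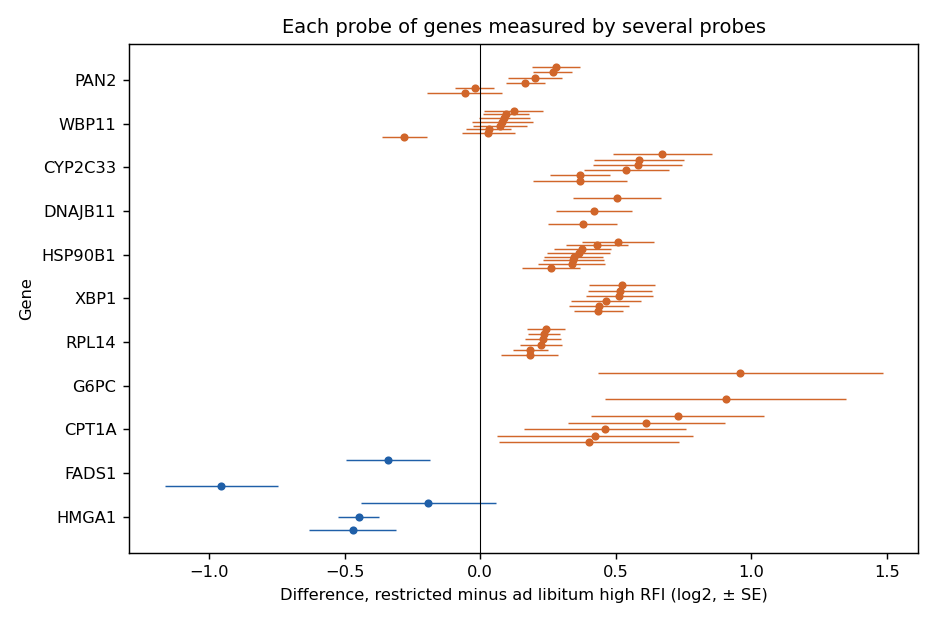
Difference of every tested probe of 11 genes (x axis, log2, restricted minus ad libitum high RFI, points with ± SE bars), blue where the median probe lies below 0 and orange where it lies above. The 8 HSP90B1 probes lie between 0.26 and 0.51, whereas 1 WBP11 probe lies at -0.28 apart from the other 7.

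Among the other genes of smallest p that were higher, SHC1, an adaptor of receptor tyrosine kinases, differed by 0.25 ± 0.06 (its 4 probes gave -0.0084 to 0.25) and COPA, a coat subunit of Golgi vesicles, by 0.35 ± 0.10 (SE), with 0.08 to 0.35 over 6 probes. PEAR1, a platelet and endothelial receptor, had a level of -1.33 to -0.41 (median -0.76) in restricted and -1.84 to -0.71 (median -1.59) in ad libitum pigs. The groups overlapped and the difference was 0.62 ± 0.16 (SE, adjusted p = 0.704). CYP2C33 ranged from 3.99 to 5.41 (median 4.55) against 3.12 to 4.54 (median 3.89). In 4 restricted pigs it lay above all ad libitum pigs, and the difference was 0.67 ± 0.18 (SE, adjusted p = 0.709). ZRANB2, a splicing factor, and H3F3A, a histone gene of a multigene family whose copies these probes may not separate, differed by 0.26 ± 0.07 and 0.36 ± 0.09 (SE). The brightest probe gave 0.02 ± 0.08 for ZRANB2 and 0.0019 ± 0.06 for H3F3A (SE), so the values of smallest p were not shared by all probes of either gene.

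Among the others that were lower, RFLNA, a regulator of actin networks, had a level of -3.09 to -1.24 (median -2.33) in restricted and -1.97 to -0.88 (median -1.40) in ad libitum pigs. In 6 of 8 restricted pigs it lay below all ad libitum pigs, and the difference was -0.87 ± 0.25 (SE, adjusted p = 0.709). CD55, which protects cells from complement, differed by -0.64 ± 0.19 with the probe of smallest p and by -0.13 ± 0.10 with its brighter probe (SE). CYP2D25, which hydroxylates vitamin D, differed by -0.37 ± 0.11 (SE), with -0.37 to -0.29 over 3 probes. CD84, a leukocyte receptor, was dim. Its level was -5.70 to -4.78 (median -5.32) in restricted and -5.21 to -4.24 (median -4.56) in ad libitum pigs. It passed the background limit in 4 of 8 restricted and 8 of 8 ad libitum pigs, and the groups overlapped. The difference was -0.59 ± 0.16 (SE) and was -0.22 after normexp background correction. The other CD84 probe, about as dim, gave -0.17 ± 0.21 (SE). P14ARF, a product of a tumour suppressor locus, RAP2B, a small GTPase, METTL11B, an N-terminal methyltransferase, and NDUFAF3, an assembly factor of complex I, differed by -0.52, -0.42, -0.37 and -0.29. The brightest probe gave -0.30 ± 0.11 for P14ARF and -0.07 ± 0.13 for NDUFAF3 (SE). P14ARF, by its probe of smallest p, passed the background limit in 7 of 8 restricted pigs. RAP2B was at -0.60 on the first scan day and -0.15 on the second.

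Plasma protein genes of the acute phase were split. Of 21 measured members 14 lay above 0 with a median of 0.04. At an unadjusted p under 0.05, 4 were higher and 1 was lower, and 0 passed after adjustment. FGG, the gamma chain of fibrinogen, had a level of 5.89 to 6.89 (median 6.52) in restricted and 5.90 to 6.17 (median 5.98) in ad libitum pigs. In 6 of 8 restricted pigs it lay above all ad libitum pigs, while restricted pig 5 had the lowest level of all 16. The difference was 0.47 ± 0.12 (SE, adjusted p = 0.704). An unnamed probe described on the array as fibrinogen alpha, A_72_P299594, ranged from 6.75 to 7.98 (median 7.45) against 6.26 to 7.10 (median 6.81). In 7 of 8 restricted pigs it lay above all ad libitum pigs, and the difference was 0.66 ± 0.15 (SE, adjusted p = 0.687). This probe too was picked outside the naming rules.

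LBP, which binds bacterial lipopolysaccharide, differed by 0.68 ± 0.32, CRP, an opsonin, by 0.57 ± 0.27 and C4BPA, a complement inhibitor, by 0.21 ± 0.10 (SE). LCN2, an iron-siderophore carrier, differed by -0.50 ± 0.23 (SE). Only 3 of 8 restricted pigs had it well above background, against 7 of 8 ad libitum pigs. HAMP, the iron hormone hepcidin, differed by 1.33 ± 0.87 (SE), the widest spread of the list. Neutrophil markers, which may move with the acute phase, had 5 of 6 measured members above 0. Their mean level was -2.32 to -1.48 in ad libitum and -2.16 to -0.97 in restricted pigs, highest among the high RFI pigs in restricted pigs 4, 7 and 8. Without restricted pigs 7 and 8 the acute phase median was 0.0081 and the neutrophil median -0.12. The part of neutrophils in the acute phase values was not tested.

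Interferon response genes had the lowest list median, and it rested on a pair of ad libitum pigs. Of 35 measured members 34 had a difference below 0, with a median of -0.38. Of the 35, 0 passed the adjusted threshold and 2 were lower at an unadjusted p under 0.05. The list level was 1.53 in ad libitum pig 5 and 1.71 in ad libitum pig 7, and -0.61 to 0.36 in the other high RFI pigs of both groups. Without those 2 pigs the median was 0.08, with 24 of 35 members above 0. T and NK cell markers, which could accompany such a response, were at 0.33 and -0.19 in ad libitum pigs 5 and 7. The ad libitum range was -0.46 to 0.34, highest in pig 4, whose interferon list level was 0.36. Whether these markers follow the interferon response was not tested. IRF1, a transcription factor induced by interferon, differed by -0.32 ± 0.14 (SE), by -0.58 on the first scan day and by -0.0030 on the second. PSMB10, a subunit of the immunoproteasome, had a level of 2.91 to 3.65 (median 3.24) against 3.21 to 4.01 (median 3.54), and its groups overlapped. Its difference was -0.37 ± 0.15 (SE, adjusted p = 0.880). The members of smallest p stayed below 0 in all 33 alternative settings, among them the one without those 2 ad libitum pigs. Their differences ran from -0.58 to -0.0030 for IRF1 and -0.52 to -0.20 for PSMB10. For GBP1 and PSMB9 they ran from -0.58 to -0.31 and from -0.60 to -0.12. Their choice by p partly fixes this.

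The cell cycle list lay below all ad libitum pigs in 5 restricted pigs, and restricted pig 5 had the highest level of all 16. Of 19 measured members, HMGA1 among them by its brightest probe, 17 had a difference below 0 and the median was -0.19. None of the 19 passed the adjusted threshold with limma, and 0 had an unadjusted p under 0.05. CDK1, the kinase that starts mitosis, had a level of -3.42 to -0.07 (median -2.26) in restricted and -2.37 to -0.74 (median -1.17) in ad libitum pigs. Restricted pig 5 was the highest of all 16, and 4 restricted pigs lay below all ad libitum pigs. The difference was -0.73 ± 0.36 (SE), and -1.02 and -0.30 on the separate scan days. MCM3, of the replicative helicase, and CCNB2, a mitotic cyclin, differed by -0.71 ± 0.35 and -0.53 ± 0.29 (SE). CCNB2 passed the background limit in 4 of 8 restricted and 8 of 8 ad libitum pigs. The list level was 0.79 in restricted pig 5 and -0.50 to 0.10 in the other 7, against -0.12 to 0.35 in ad libitum pigs. The median difference was -0.10 without ad libitum pigs 5 and 7, -0.10 without restricted pigs 7 and 8 and -0.09 on the second scan day.

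Most ribosomal and respiratory chain genes had small differences above 0. All 38 measured ribosomal protein genes lay above 0 with a median of 0.09, though 35 did after quantile normalization, 37 after normexp and 29 among pigs of the second scan day. Of the 38, 0 passed the adjusted threshold and 2 were higher at an unadjusted p under 0.05. By pig, the list level was -0.08 to 0.21 (median 0.04) in restricted and -0.14 to 0.06 (median -0.07) in ad libitum pigs. The groups overlapped, and low RFI pigs had a median of 0.05. RPL14 with A_72_P614716 had a level of 6.19 to 6.52 (median 6.28) in restricted and 5.90 to 6.21 (median 6.07) in ad libitum pigs. In 7 restricted pigs it lay above all ad libitum pigs, and the difference was 0.23 ± 0.06 (SE, adjusted p = 0.704). Respiratory chain genes lay above 0 in 24 of 28, with a median of 0.07, in 21 after quantile normalization and in 19 on the second scan day. ATP5O, a stalk subunit of ATP synthase, was the 1 member at an unadjusted p under 0.05, with 0.23 ± 0.09 (SE, adjusted p = 0.860).

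Amino acid breakdown genes lay above 0 in 14 of 18 measured members (median 0.10). The count fell to 9 without restricted pigs 7 and 8, with a median of 0.0065, and to 8 on the second scan day, with a median of -0.03. CTH, which makes cysteine, and GPT2, a mitochondrial alanine aminotransferase, were the 2 members at an unadjusted p under 0.05. The level of CTH was 5.44 to 6.87 (median 6.06) in restricted and 5.18 to 5.79 (median 5.71) in ad libitum pigs. In 5 restricted pigs it lay above all ad libitum pigs, and the difference was 0.45 ± 0.16 (SE, adjusted p = 0.843). GPT2 differed by 0.39 ± 0.17 (SE), by 0.52 on the first scan day and by 0.14 on the second. In the urea cycle 0 of 5 measured genes had an unadjusted p under 0.05, and ARG1, the arginase of the cycle, differed by 0.30 ± 0.20 (SE).

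Hormone pathways of growth gave no called change. In the insulin, growth hormone and IGF list 10 of 18 measured members lay above 0 (median 0.02) and 0 had an unadjusted p under 0.05. IGF1, the growth factor that growth hormone induces in liver, had a level of -0.08 to 2.21 (median 1.28) in restricted and 0.46 to 1.33 (median 0.86) in ad libitum pigs. The restricted pigs spanned the ad libitum range on both sides, and the difference was 0.40 ± 0.31 (SE, 95% interval -0.23 to 1.04). SOCS3, a feedback inhibitor of cytokine signals, differed by 0.81 ± 0.41, and the binding protein genes IGFBP1 and IGFBP2 by -0.05 ± 0.43 and -0.11 ± 0.17 (SE). The other SOCS3 probe gave 0.23. Of the 41 feeding-responsive genes chosen for naming, 31 were measured. Among those not analysed here are ELOVL6, INSIG1, PKLR, IRS2, ASNS, PER2, NR1D1, CPS1 and TAT.

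In bile acid and nuclear receptor genes 1 of 19 members had an unadjusted p under 0.05. This was NR0B2, the bile acid-induced repressor SHP, with a level of -1.83 to 1.20 (median -0.39) in restricted and -2.74 to 0.32 (median -1.33) in ad libitum pigs. The groups overlapped, and the difference was 0.97 ± 0.44 (SE, adjusted p = 0.916). CYP7A1, the rate-limiting enzyme of bile acid synthesis, differed by -0.93 ± 0.61 with its brightest probe and by -1.42 with A_72_P078461. CEBPA, a factor of hepatocyte identity, differed by -0.59 ± 0.38 (SE). The lists for clock, glucocorticoid, autophagy, proteasome and antioxidant genes had medians of 0.13, 0.17, -0.02, 0.02 and -0.0018, and 0 of their members had an unadjusted p under 0.05 or an adjusted p under 0.05 with limma.

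Markers of other cell types had list medians from -0.23 to 0.35, and 0 of their members passed after adjustment with limma. Stellate and fibroblast markers lay below 0 in 8 of 10 measured members (median -0.14), with collagen genes COL1A2 and COL3A1 at -0.31 ± 0.21 and -0.09 ± 0.09 (SE). The median of that list was -0.0053 on the first scan day and -0.30 on the second. Kupffer cell and macrophage markers had a median of 0.04, and CD84 was the 1 of 8 at an unadjusted p under 0.05. Endothelial, T and NK cell and B cell markers had medians of -0.0045, -0.08 and -0.04. XBP1, which the B and plasma cell list also holds, was the 1 of these members at an unadjusted p under 0.05. Hepatocyte, skeletal muscle, adipocyte and erythroid markers had medians of -0.04, -0.0028, 0.0027 and 0.11, the last over 2 genes. Cholangiocyte markers lay above 0 in 4 of 5, with 1 higher at an unadjusted p under 0.05, and their median of 0.35 was 0.01 on the first scan day and 0.71 on the second. Pancreatic acinar markers, of which 4 of 16 were measured, had a median of -0.23.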

How the data were processed

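Liver RNA (150 ng per pig, per the labels' protocols) was labelled with Cy3 and hybridised to 1-colour Agilent arrays of 45220 features, 1 pig per array. The deposited intensity values used are the processed signal of Agilent Feature Extraction 10.7.3.1, background-subtracted and detrended, per the file headers. Mean signal and local background, intensity columns of the same deposited files, served the normexp alternative (offset 50). The authors also deposited log2 values for 27564 features, which match the same signals on the log2 scale after median centring per array. The submitters' processing notes name R 2.10.0.

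Control spots and spots marked as outliers (980 in all) were left out, 0 spots were saturated, the array's 75th percentile was subtracted on the log2 scale, and spots of a probe were averaged. Tested were 29554 of 43603 probes, well above background on at least 6 of 8 arrays of either high RFI group. A single symbol was found for 12054 probes through RefSeq's annotation of Sscrofa11.1 (names only), 29 matched several and 31520 none. Old names may remain, and 14049 probes were not tested.

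Differences were fitted with limma 3.58.1 (R 4.3.3) over all 24 arrays with group as the only factor, and Benjamini-Hochberg adjustment ran over all probes tested. The code was tested on simulated data. Python 3.11.15, pandas 2.3.3, numpy 2.4.6 and matplotlib 3.10.9 did the rest. Precision is limited by 8 arrays per group.

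Named were the 12 genes of smallest p in each direction (by that probe), 41 feeding-responsive genes and up to 4 genes of smallest p per pathway list. The 2 unnamed probes described as fibrinogen alpha and delta-5 desaturase were added by hand and by no rule. Their values are thus no separate support for FGG and FADS1. Further names (SAR1A, ALB, CRP, HAMP, CALR, ACSL3, PNPLA3, CYP7A1, COL1A2, COL3A1 and those among the closing observations) were chosen after their values were seen, and some measured genes are not reported here. Lists (23 pathway, 12 marker) count each gene by its brightest probe and were not tested as sets. Members and lists were chosen with earlier results of these data known. Alternatives covered scaling, background, filters, slide, scan day, pig number, array weights and left-out pigs. The setting without restricted pigs 7 and 8 kept the ad libitum pigs of those numbers. Likewise, the setting without ad libitum pigs 5 and 7 kept the restricted pigs of those numbers.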

Additional observations from a re-analysis of the deposited data

Results flagged for a closer look

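In 171 groups of 8 pigs examined, 6 had a lowest or highest pig far from the others (gap over the group's range above 0.526), and chance alone gives about 1 in 20 groups. In ad libitum pigs the highest pig stood apart for METTL11B at a level of -3.58 and for G6PC at 4.79. The lowest ad libitum pig stood apart for DNAJB11 at 1.89 and for the amino acid breakdown list at -0.39. In restricted pigs the highest pig stood apart for DNAJB11 at 3.41 and for the cell cycle list at 0.79. No cause of these was tested.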

How the results depend on the processing

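Of the 33 alternative settings, 31 called 0 probes. With array weights 2 passed, HMGA1 (-0.44, adjusted p = 0.0440) and the unnamed A_72_P530944 (-0.43). Within scan day 2 alone, 1 unnamed probe passed, A_72_P308228, at 2.07 there against 0.57 over all pigs. At an unadjusted p under 0.05, 2975 of 43603 probes passed with no filter on dim probes. Of 29554 probes, 708 passed after normexp and 797 within scan day 2, against 1592 in the main fit, where chance gives 1478. Leaving out 1 pig at a time gave 0 calls each time, 1224 to 2234 probes at an unadjusted p under 0.05 and 27774 to 28052 intervals within 2-fold. With pig number as a replicate block 0 probes passed and 2151 had an unadjusted p under 0.05. Same-numbered pigs of both groups correlated in their deviations at -0.035 to 0.425, with a mean of 0.147 against -0.020 for other pairs, and 4 of 8 correlated best with their own number. This hints at shared numbering, but the labels do not say what a number marks and 5 of 8 pairs, not all, were over 0.1, so the fit without the block was kept.

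Over all settings 27 of the 109 named values outside the 24 of smallest p changed sign at least once (75 of 3590 combinations). The 24 did not, which their choice by p largely fixes. List medians ranged from -0.40 to -0.15 for fatty acid synthesis, 0.21 to 0.31 for the unfolded protein response, -0.27 to -0.095 for cell cycle and -0.57 to 0.08 for interferon response. The cause of these shifts was not tested. Dim transcripts such as CD84 and CCNB2 are limited by signal over background.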

Other observations

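Named transcripts with estimated differences beyond 2-fold included several that belong to no list above, and none passed after adjustment. NNMT, which methylates nicotinamide, had a level of -0.77 to 5.11 (median 3.41) in restricted and -0.38 to 4.36 (median 0.89) in ad libitum pigs, and the groups overlapped. Its difference was 1.65 ± 0.75 (SE, adjusted p = 0.919). PON3, a lactonase carried by high-density lipoprotein, differed by -1.56, -1.54 and -1.29 with its 3 probes beyond 2-fold. With A_72_P182996 PON3 ranged from 0.57 to 4.73 (median 1.10) in restricted and from 0.77 to 5.45 (median 4.73) in ad libitum pigs, so both groups spanned most of the same range. CYP2C49, a cytochrome P450, differed by 1.20 ± 0.55 and 1.09 ± 0.49 (SE) with both of its probes beyond 2-fold. FST, the activin-binding follistatin, differed by 1.34 ± 0.74 (SE). PVALB, a calcium-binding protein, differed by -1.19 ± 0.38 (SE), and 1 of 8 restricted and 6 of 8 ad libitum pigs had it well above background.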
